A study of Saccharomyces cerevisiae with 12 samples.

Results

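The transcripts of 36 heat shock protein and chaperone genes of budding yeast were followed in 3 groups of cells. The 36 genes were chosen by name from the 6412 genes and other features of the count tables, with earlier results of these data known. All 36 passed the filter on low counts. Polyadenylated RNA was sequenced in 12 samples, 4 replicates of each group. Wild-type S cells (strain E3087) were arrested in G1 with α-factor for 2.5 h, washed and harvested 30 min after release. CDK/DDK bypass G1 cells (strain YKR1503) were arrested in the same way for 2.5 h and then held for 3 h with 2% galactose, which switches on Dbf4, Dpb11 and the Sld2 variant sld2-T84D from galactose promoters so that cells replicate DNA in G1. These are called bypass cells here. Wild-type G1 cells (strain YKR1500) are labelled wild type and went through the same arrest and the same 3 h of galactose. All groups were first grown in medium with 2% raffinose at 30 °C, and the labels name no heat shock. Each group is 1 strain of the W303 background, and the labels do not say whether replicates were separate cultures, so that p-values measure only the spread between these samples. In wild-type S against either G1 group, strain, time in arrest, treatment and cell cycle phase cannot be told apart. Bypass and wild-type G1 cells shared time in arrest and galactose. Between them strain, the induced proteins and replication in G1 cannot be told apart.

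Between 8162140 and 10545835 read pairs were counted on genes in each sample. Transcripts known to mark each state were checked against the labels, in TPM (read pairs per length of gene, scaled to the same sum in each sample). The induced genes SLD2, DPB11 and DBF4 were high in bypass cells, with SLD2 at 2344 to 2727 TPM there, against 24.3 to 30.0 TPM in wild-type G1. The pheromone gene FUS1 was at 9.69 to 15.1 TPM in wild-type S, 1266 to 1339 TPM in bypass cells, and 1008 to 1054 TPM in wild-type G1, and the histone gene HTA2 at 2857 to 3017, 108 to 131 and 28.1 to 48.9 TPM in the same order. GAL1, the galactokinase gene induced by galactose, was at 5521 to 5873 TPM in wild-type S as well, against 6892 to 7039 TPM in bypass cells, and 5487 to 6426 TPM in wild-type G1, although the labels name no galactose for wild-type S.

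Many heat shock proteins are chaperones: these hold, fold or pull apart other proteins, and cells need them in normal growth as well as after heat or misfolding stress. In yeast the cytosolic Hsp70s with their J-domain partners and nucleotide exchange factors receive unfolded chains, Hsp90 with its co-chaperones matures kinases and other clients, the small heat shock proteins hold misfolded proteins in deposits, and Hsp104 dissolves such aggregates. The Ssb Hsp70s with the ribosome-associated complex receive chains as they leave the ribosome. Mitochondria and the endoplasmic reticulum (ER) have Hsp70s of their own. The transcription factor Hsf1 drives many of these genes through heat shock elements, Msn2 and Msn4 drive general stress genes through stress response elements, and the unfolded protein response drives ER chaperones.

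Replicates 1 and 2 of each group were nearly alike, and so were replicates 3 and 4. Their counts differed by a mean chi-square of 1.51 to 2.49 per gene inside a pair, above the value of 1 that sampling noise gives, and by 3.12 to 48.6 across pairs. The widest gap lay within wild-type G1, and most of the 36 genes differed there. Of the 36 genes, 27 were higher in both of wild-type G1 replicates 3 and 4 than in both of replicates 1 and 2, and 7 were lower, whereas 37.2% and 36.3% of the 5662 genes tested did so. The ratio of replicates 3 and 4 over replicates 1 and 2 in CPM (counts scaled to library size) was 2.43 for BTN2, 2.21 for SSA4, 2.07 for SSE2 and 1.68 for HSP42. The difference passed 0.5 on the log2 scale in 12 of the 36 genes (33.3%) in wild-type G1, and in 11.5% of all genes tested. It did so in 0 of the 36 in bypass cells and in 1 in wild-type S. In the same wild-type G1 samples the ratio, taken here in TPM, was 0.979 for the pheromone gene FUS1, 1.13 for GAL1 and 1.58 for HTA2. The part of these in the split was not tested. Counts of genes against wild-type G1 are therefore also given for replicates 1 and 2 alone and for replicates 3 and 4 alone, and so are single genes that passed over all samples and whose log2 fold change moved by over 1.5 times within a pair or no longer passed there. There only the 2 nearly alike samples of a group measure the spread.

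**Figure D1:**
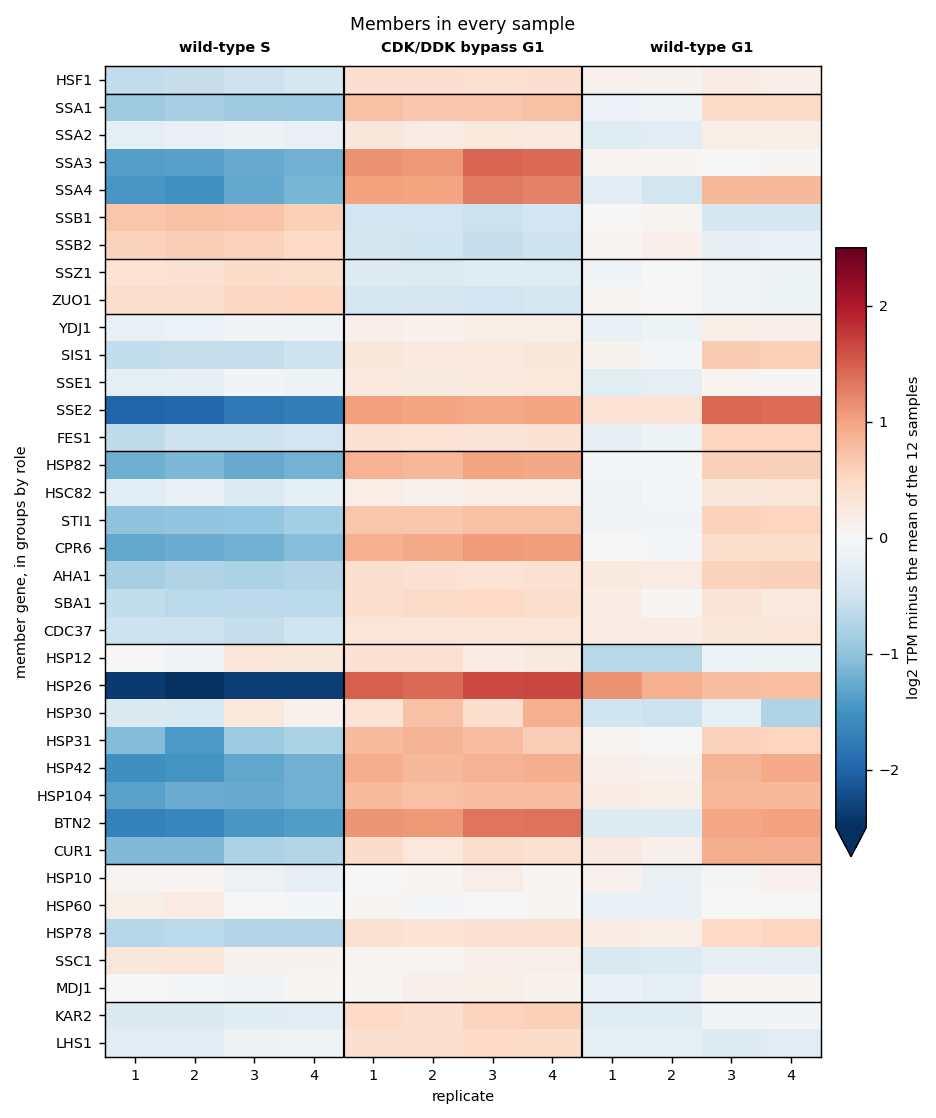
Level of each of the 36 genes (rows, grouped by role with black lines) in every sample (columns), as log2 TPM minus the gene's mean over the 12 samples. Red is above and blue below that mean. The 4 wild-type S samples are blue for most genes and red for SSB1, SSB2, SSZ1 and ZUO1, and wild-type G1 replicates 3 and 4 are redder than replicates 1 and 2 for the Hsp90, small heat shock protein and J-domain groups.

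Taken as a sum, the 36 transcripts were most abundant in bypass cells and least in wild-type S. The sum was 14472, 14781, 14589 and 14435 TPM in wild-type S, 20788, 20369.9, 21086 and 21154 TPM in bypass cells, and 15841, 15745, 19659.5 and 19680.0 TPM in wild-type G1. Wild-type S samples all lay below wild-type G1, and the bypass samples all lay above it, although wild-type G1 replicates 3 and 4 came within reach of bypass cells. The sum came to 1.46% ± 0.0156 of all TPM in wild-type S, 2.08% ± 0.0357 in bypass cells and 1.77% ± 0.224 in wild-type G1 (SD, n = 4 each).

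In wild-type S against wild-type G1, the question was how the set stands in cells that replicate in S phase. Of the 36 genes, 31 passed an adjusted p below 0.1 in edgeR, 10 higher and 21 lower in wild-type S. Of all genes tested, 83.8% passed, 40.4% higher and 43.3% lower, so that the share of genes called was near that of all genes, while the called genes of the set were lower more often than higher. The median log2 fold change was -0.61 over the 36 genes and -0.024 over all genes tested. The samples of both groups did not overlap in CPM for 30 of the 36, against 73.9% of all genes. Against a log2 fold change of 0.5 in place of 0, 24 genes passed, against 41.5% of all genes. Within replicates 1 and 2 alone 34 genes passed (83.3% of all genes), and within replicates 3 and 4 alone 34 (86.0%). Of the 36, 29 passed in the same direction in both, a count not taken over all genes.

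Against bypass cells, wild-type S had 6 genes higher and 26 lower, 32 of 36 in all. Of all genes tested 85.1% passed, 41.5% higher and 43.6% lower. The median log2 fold change was -0.70 over the 36 genes, with -0.021 over all genes, and the groups did not overlap for 32 genes, against 81.7% of all. Against a log2 fold change of 0.5, 25 of the 36 passed, with 45.7% of all genes. The genes called higher in wild-type S were SSB1, SSB2, SSZ1, ZUO1, HSP60 and SSC1.

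In bypass cells against wild-type G1, the comparison asks what unscheduled replication in G1 and the proteins that drive it go with, at the same time in arrest and in the same galactose. Here 23 of 36 genes passed, 19 higher and 4 lower in bypass cells. Of all genes tested 54.5% passed, 26.0% higher and 28.5% lower. The median log2 fold change was 0.27 over the 36 genes and -0.018 over all genes, and the groups did not overlap for 22 of the 36, against 44.0% of all. Changes were small: against a log2 fold change of 0.5, 5 genes passed, SSA3, HSP30, CPR6, LHS1 and KAR2, with 2.84% of all genes. Scaled to ERCC spike-in RNA in place of TMM, the median of all genes moved to 0.20. Of all genes 49.1% passed there, and 91.0% of these were higher in bypass cells (with TMM 47.7%). Among the 36 genes 28 were higher and 1 lower.

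**Figure D2:**
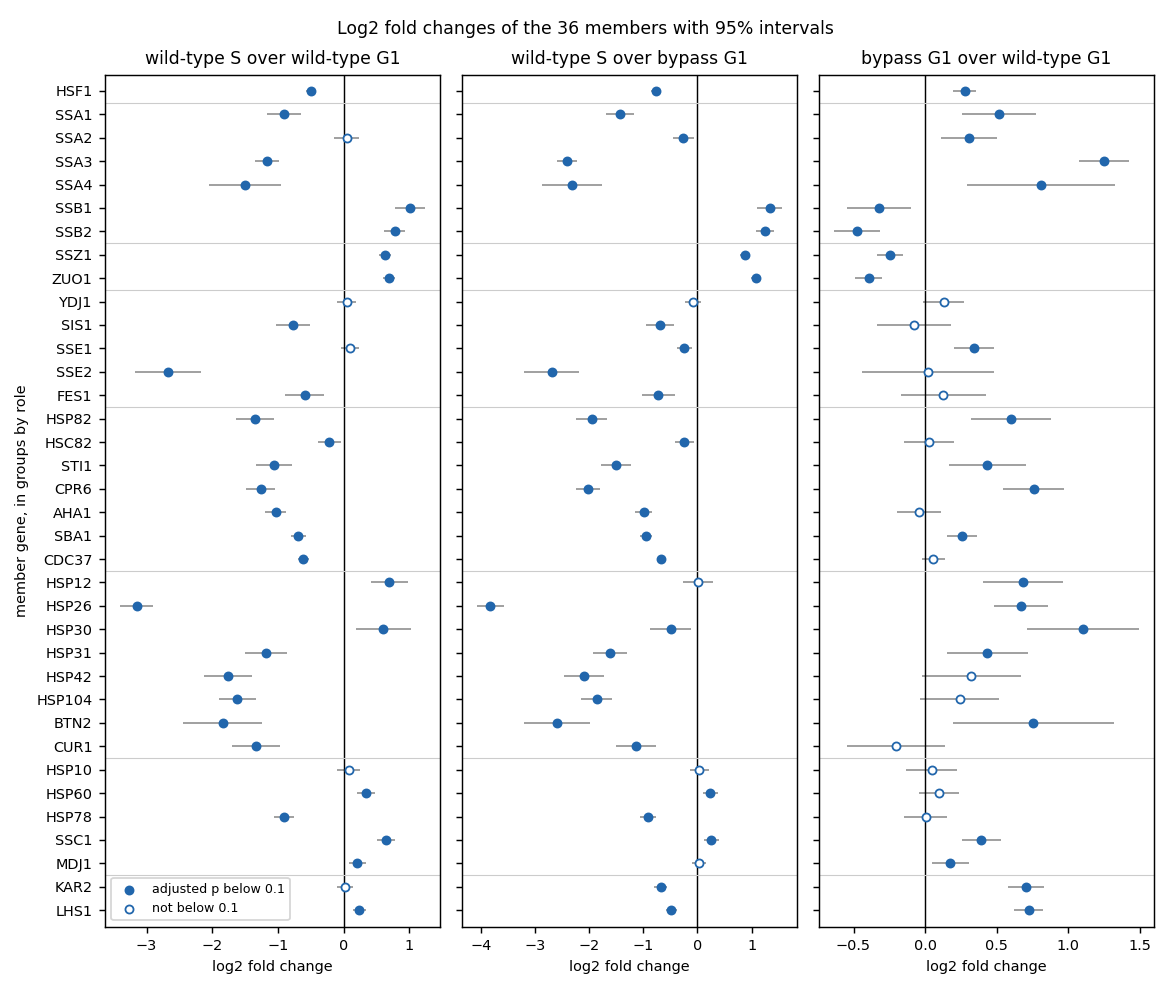
Log2 fold change of each of the 36 genes (rows, grouped by role) with its 95% interval from edgeR, in 3 comparisons. Filled points passed an adjusted p below 0.1 and open points did not. Both comparisons of wild-type S have most points left of 0, with HSP26, SSE2 and BTN2 farthest, and bypass cells against wild-type G1 have most points right of 0 on a narrower scale.

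The split of wild-type G1 bore on how many genes differed in this comparison. Within replicates 1 and 2 alone 31 genes were called higher and 4 lower in bypass cells, with a median log2 fold change of 0.46, against 32.9% of all genes higher and 33.2% lower. Within replicates 3 and 4 alone 18 were higher and 11 lower with a median of 0.097, against 31.7% and 32.3% of all genes. A total of 22 genes were called in the same direction in both, 18 higher and 4 lower. Another 7 were called in opposite directions: SIS1, SSE2, FES1, HSC82, AHA1, CUR1 and HSP78 were higher in bypass cells within replicates 1 and 2 and lower within replicates 3 and 4. The shares of all genes called in both pairs, in the same or in opposite directions, were not counted. With counts summed within each pair, so that a group has 2 samples, 15 of the 36 passed, against 25.5% of all genes. Of these 12 were higher and 3 lower, all among the 23 called over all samples. Over all samples 19 had been higher and 4 lower, so that genes called higher lost their call too. Of the genes that no longer passed, SSB1 alone is marked as such below, and the others are described without this mark. Adjusted p-values of single genes come from all 12 samples unless stated, and some that are below 0.1 there did not pass with summed counts.

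**Figure D3:**
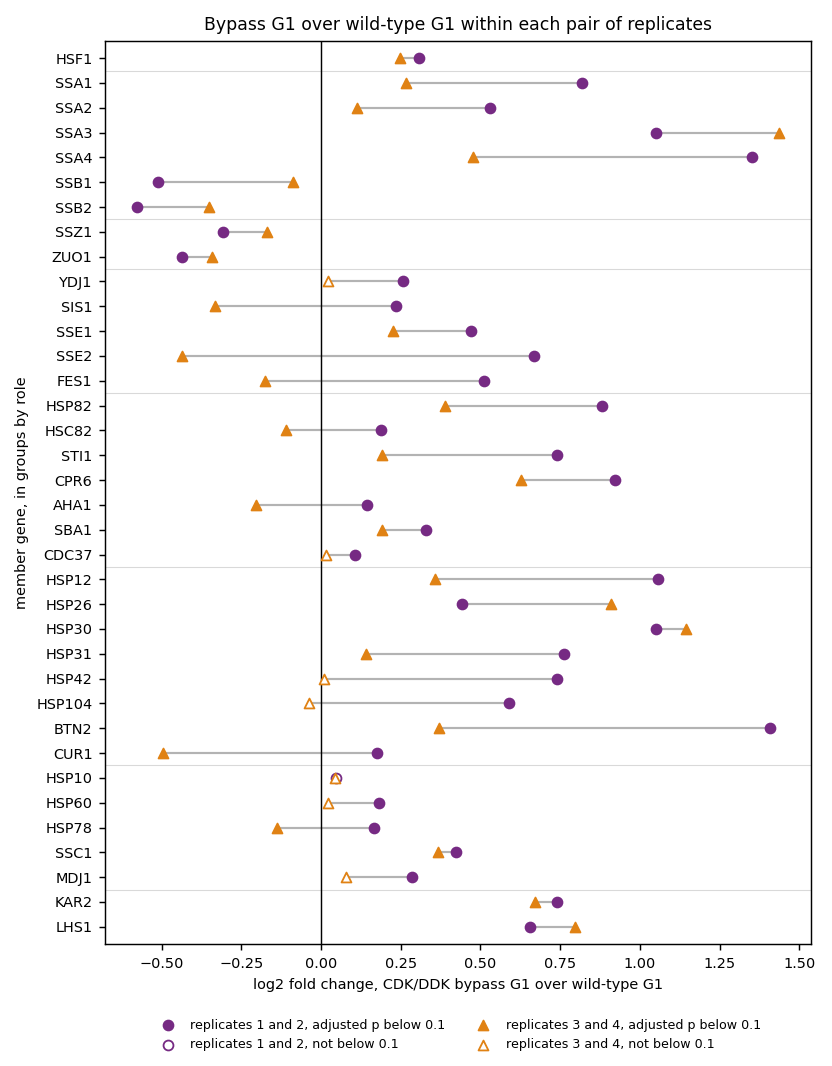
Log2 fold change of bypass cells over wild-type G1 for each of the 36 genes (rows, grouped by role), from replicates 1 and 2 alone (circles) and from replicates 3 and 4 alone (triangles), joined by a line. Filled points passed an adjusted p below 0.1. Lines that cross 0 are genes whose direction differed, among them SSE2, CUR1, FES1 and SIS1, whereas SSC1, KAR2, LHS1, SSA3 and HSP30 lie right of 0 in both pairs.

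HSF1 (YGL073W, chromosome 7, 368753 to 371254, plus strand in the R64 assembly) encodes the heat shock factor itself, an essential activator that binds heat shock elements as a trimer. It was at 33.2, 34.0, 35.4 and 37.1 TPM in wild-type S, 66.7, 67.7, 65.9 and 67.4 TPM in bypass cells, and 54.2, 53.7, 57.8 and 55.3 TPM in wild-type G1. The 3 groups did not overlap, with wild-type S lowest and bypass cells highest. The transcript fell in wild-type S against wild-type G1 (log2 fold change -0.50, standard error 0.037, adjusted p in edgeR = 3.72e-08) and was higher in bypass cells than in wild-type G1 (log2 fold change 0.28, standard error 0.036, adjusted p in edgeR = 6.82e-05). That rise was 0.31 within replicates 1 and 2 and 0.25 within replicates 3 and 4.

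The cytosolic Hsp70s fell into 2 kinds that moved in opposite directions. The Ssa proteins, general Hsp70s of which SSA1, SSA3 and SSA4 are heat-inducible, were, relative to wild-type G1, higher in bypass cells and, except for SSA2, lower in wild-type S, whereas the ribosome-bound Ssb proteins did the reverse. SSA3 (YBL075C, chromosome 2, 84499 to 86448, minus strand) was at 21.1, 21.6, 23.0 and 24.1 TPM in wild-type S, 120.1, 117, 151 and 148 TPM in bypass cells, and 57.0, 56.8, 54.8 and 56.6 TPM in wild-type G1. No group overlapped another, and the wild-type G1 samples were the closest together. SSA3 had the largest change of the 36 genes in bypass cells against wild-type G1 (log2 fold change 1.25, standard error 0.080, adjusted p in edgeR = 2.39e-07), and fell in wild-type S (log2 fold change -1.16, standard error 0.085, adjusted p in edgeR = 3.04e-08 against wild-type G1, and -2.41 against bypass cells). The rise in bypass cells was 1.05 within replicates 1 and 2 and 1.44 within replicates 3 and 4.

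SSA4 (YER103W, chromosome 5, 364589 to 366517, plus strand), low without stress and strongly induced by heat, was at 22.9, 21.8, 25.6 and 28.2 TPM in wild-type S, 125, 124, 154 and 147 TPM in bypass cells, and 51.3, 45.8, 109.8 and 109 TPM in wild-type G1. The wild-type G1 samples formed a low and a high pair, and all 4 stayed below bypass cells and above wild-type S. Its log2 fold change in bypass cells was 0.81 (standard error 0.24, adjusted p in edgeR = 0.014), but 1.35 within replicates 1 and 2 and 0.48 within replicates 3 and 4. In wild-type S it fell by 1.51 on the log2 scale against wild-type G1 and fell by 2.32 against bypass cells. Against wild-type G1 this was -0.95 within replicates 1 and 2 and -1.86 within replicates 3 and 4. SSA1 (YAL005C, chromosome 1, 139503 to 141431, minus strand) was at 650.2, 681, 648 and 647 TPM in wild-type S, 2021, 1920.3, 1966 and 2007 TPM in bypass cells, and 1090.2, 1127, 1665 and 1666 TPM in wild-type G1. It was lowest in all wild-type S samples (log2 fold change -0.91, standard error 0.12, adjusted p in edgeR = 9.82e-06 against wild-type G1) and highest in bypass cells (log2 fold change 0.51 over wild-type G1, adjusted p in edgeR = 0.00349), where the difference was 0.82 within replicates 1 and 2 and 0.27 within replicates 3 and 4. The fall in wild-type S was -0.57 within replicates 1 and 2 and -1.20 within replicates 3 and 4. SSA2 (YLL024C, chromosome 12, 95566 to 97485, minus strand), the constitutive partner of SSA1, was at 794, 816, 842 and 816 TPM in wild-type S, 1127, 1064, 1105 and 1085 TPM in bypass cells, and 743, 764, 1019 and 1023 TPM in wild-type G1. It was higher in bypass cells than in wild-type G1 (log2 fold change 0.31, adjusted p in edgeR = 0.0139), by 0.53 within replicates 1 and 2 and 0.11 within replicates 3 and 4. In wild-type S its log2 fold change of 0.044 did not pass (adjusted p in edgeR = 0.658), with wild-type S inside the range of wild-type G1.

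SSB1 and SSB2 encode the Hsp70s that sit at the ribosome exit, and ZUO1 and SSZ1 the J-domain protein and the Hsp70-like partner of the ribosome-associated complex that recruits them. Compared with wild-type G1, all 4 were higher in wild-type S and lower in bypass cells. SSB1 (YDL229W, chromosome 4, 44065 to 45906, plus strand) was at 1716, 1757, 1735 and 1594 TPM in wild-type S, 764, 767, 733 and 759 TPM in bypass cells, and 1057, 1108, 809 and 793 TPM in wild-type G1. SSB2 (YNL209W, chromosome 14, 252059 to 253900, plus strand) was at 1291, 1333, 1303 and 1232 TPM in wild-type S, 628, 614, 581 and 605 TPM in bypass cells, and 895, 945, 757 and 769 TPM in wild-type G1. Neither gene had overlapping groups. In wild-type S SSB1 rose by 1.01 on the log2 scale against wild-type G1 (standard error 0.10, adjusted p in edgeR = 9.84e-07) and SSB2 by 0.78, and against bypass cells by 1.33 and 1.25. In bypass cells SSB1 fell by 0.32 and SSB2 fell by 0.47 against wild-type G1 (adjusted p in edgeR = 0.0221 and 0.000236). ZUO1 (YGR285C, chromosome 7, 1061852 to 1063153, minus strand) averaged 562 ± 17.6 TPM in wild-type S, 297 ± 6.0 TPM in bypass cells, and 390.2 ± 17.8 TPM in wild-type G1 (SD, n = 4 each), and SSZ1 (YHR064C, chromosome 8, 225525 to 227141, minus strand) 504 ± 19.7 TPM in wild-type S, 307 ± 3.92 TPM in bypass cells, and 363 ± 14.1 TPM in wild-type G1. Their log2 fold changes were 0.69 and 0.63 in wild-type S against wild-type G1, and -0.39 and -0.24 in bypass cells against wild-type G1. All 4 genes were lower in bypass cells within both pairs of replicates, SSB1 at -0.51 within replicates 1 and 2 and -0.089 within replicates 3 and 4. With counts summed within the pairs SSB1 no longer passed (-0.33, adjusted p in edgeR = 0.217), and the other 3 did. With spike-in scaling the 4 values in bypass cells were -0.11 for SSB1, -0.26 for SSB2, -0.18 for ZUO1 and -0.027 for SSZ1, of which SSB2 alone passed (adjusted p in edgeR = 0.057).

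Among the partners of the cytosolic Hsp70s, SSE2 stood out. SSE1 and SSE2 encode Hsp110 proteins, nucleotide exchange factors that make Hsp70 let go of its client. SSE2 (YBR169C, chromosome 2, 573915 to 575996, minus strand) was at 21.7, 22.3, 25.0 and 26.3 TPM in wild-type S, 177, 173, 167 and 173 TPM in bypass cells, and 109.5, 109.6, 234 and 229.8 TPM in wild-type G1. All wild-type S samples lay far below the others, and bypass cells lay between the low and the high pair of wild-type G1. SSE2 fell in wild-type S against wild-type G1 (log2 fold change -2.67, standard error 0.23, adjusted p in edgeR = 1.93e-07) and against bypass cells (log2 fold change -2.69, standard error 0.23, adjusted p in edgeR = 1.60e-07). Its log2 fold change in bypass cells against wild-type G1 was 0.020 (adjusted p in edgeR = 0.947), 0.67 within replicates 1 and 2 and -0.44 within replicates 3 and 4. SSE1 (YPL106C, chromosome 16, 350194 to 352275, minus strand), the abundant form, was at 678, 684, 751 and 722 TPM in wild-type S, 936, 926, 938 and 946 TPM in bypass cells, and 660.0, 675, 817 and 807 TPM in wild-type G1. It was higher in bypass cells than in wild-type G1 (log2 fold change 0.34, standard error 0.064, adjusted p in edgeR = 0.000948), and wild-type S lay within the range of wild-type G1 (log2 fold change 0.10, adjusted p in edgeR = 0.167).

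Of the other partners, SIS1 (YNL007C, chromosome 14, 618507 to 619565, minus strand), an essential J-domain protein, averaged 366 ± 10.4 TPM in wild-type S, 659 ± 9.04 TPM in bypass cells, and 697 ± 166 TPM in wild-type G1 (SD, n = 4 each), and fell in wild-type S against wild-type G1 (log2 fold change -0.77, standard error 0.12, adjusted p in edgeR = 5.42e-05), which was -0.46 within replicates 1 and 2 and -1.01 within replicates 3 and 4. FES1 (YBR101C, chromosome 2, 443821 to 444693, minus strand), a second kind of exchange factor, averaged 140.4 ± 6.69 TPM in wild-type S, 259 ± 3.82 TPM in bypass cells, and 238 ± 65.6 TPM in wild-type G1, and fell in wild-type S likewise (log2 fold change -0.60, adjusted p in edgeR = 0.00147), which was -0.24 within replicates 1 and 2 and -0.87 within replicates 3 and 4. YDJ1 (YNL064C, chromosome 14, 505868 to 507097, minus strand), the most abundant J-domain protein of the cytosol, did not pass in any comparison, with averages of 889 ± 34.2 TPM in wild-type S, 1056 ± 22.3 TPM in bypass cells, and 966 ± 117 TPM in wild-type G1. In bypass against wild-type G1, SSE1 was the 1 of these 5 genes that passed, where 54.5% of all genes did.

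The genes of Hsp90 and its co-chaperones were lower in wild-type S. All 7 passed as lower there than in wild-type G1 (6 with spike-in scaling, without HSC82) and than in bypass cells. The median log2 fold changes were -1.03 and -0.99. Of all genes tested 83.8% and 85.1% passed in these 2 comparisons, 43.3% and 43.6% lower. With spike-in scaling 76.5% of all genes passed against wild-type G1. The group summed to 2606 ± 66.1 TPM in wild-type S, 5986 ± 145 TPM in bypass cells, and 4855 ± 793 TPM in wild-type G1 (SD, n = 4 each). CPR6 (YLR216C, chromosome 12, 572096 to 573211, minus strand), a cyclophilin that binds Hsp90, was at 210.0, 217, 224 and 244 TPM in wild-type S, 946, 995, 1078 and 1053 TPM in bypass cells, and 514, 503, 696 and 695 TPM in wild-type G1. The 3 groups did not overlap, and CPR6 was the gene of this group farthest apart in bypass cells (log2 fold change 0.76, standard error 0.098, adjusted p in edgeR = 5.95e-05), with 0.92 within replicates 1 and 2 and 0.63 within replicates 3 and 4. In wild-type S it fell by 1.26 on the log2 scale against wild-type G1 and fell by 2.02 against bypass cells.

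HSP82 (YPL240C, chromosome 16, 96496 to 98625, minus strand), the heat-inducible Hsp90, was at 223, 239, 217 and 229 TPM in wild-type S, 956, 927, 1030.4 and 1017 TPM in bypass cells, and 512, 504, 787 and 790.0 TPM in wild-type G1. It followed the order of CPR6, lower in wild-type S (log2 fold change -1.35, standard error 0.13, adjusted p in edgeR = 5.73e-07 against wild-type G1) and higher in bypass cells (log2 fold change 0.60, standard error 0.13, adjusted p in edgeR = 0.0022), by 0.88 within replicates 1 and 2 and 0.39 within replicates 3 and 4. HSC82 (YMR186W, chromosome 13, 632355 to 634472, plus strand), the constitutive Hsp90, was at 1139, 1192, 1075 and 1145 TPM in wild-type S, 1517, 1461, 1523 and 1534 TPM in bypass cells, and 1276, 1319, 1659 and 1672 TPM in wild-type G1. It moved far less: -0.22 on the log2 scale in wild-type S against wild-type G1 (standard error 0.080, adjusted p in edgeR = 0.0239), which was 0.014 within replicates 1 and 2 and -0.42 within replicates 3 and 4. Its samples overlapped between these groups, and it no longer passed with spike-in scaling (-0.13, adjusted p in edgeR = 0.286) or with counts summed within pairs (-0.22, adjusted p in edgeR = 0.199). STI1 (YOR027W, chromosome 15, 381053 to 382822, plus strand), which joins Hsp70 to Hsp90, averaged 291 ± 14.4 TPM in wild-type S, 922 ± 20.3 TPM in bypass cells, and 684 ± 169 TPM in wild-type G1 (SD, n = 4 each), fell by 1.07 on the log2 scale in wild-type S and rose by 0.43 in bypass cells (adjusted p in edgeR = 0.0126), which was 0.74 within replicates 1 and 2 and 0.19 within replicates 3 and 4. SBA1 (YKL117W, chromosome 11, 220324 to 220974, plus strand), the yeast p23, averaged 365 ± 6.98 TPM in wild-type S, 787 ± 16.9 TPM in bypass cells, and 659 ± 54.4 TPM in wild-type G1, and rose by 0.26 in bypass cells (adjusted p in edgeR = 0.00103). AHA1 (YDR214W, chromosome 4, 892875 to 893927, plus strand), which activates the Hsp90 ATPase, and CDC37 (YDR168W, chromosome 4, 790328 to 791848, plus strand), which brings kinases to Hsp90, were both lower in wild-type S, where AHA1 fell by 1.03 and CDC37 fell by 0.62 against wild-type G1. In bypass cells they did not pass, with -0.043 and 0.058.

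Among the small heat shock proteins, the disaggregase and the sorting factors, HSP26 had the largest change of the 36 genes in wild-type S, against either other group. HSP26 (YBR072W, chromosome 2, 382030 to 382674, plus strand), a small heat shock protein that co-assembles with misfolded proteins, was at 12.3, 10.2, 12.5 and 12.6 TPM in wild-type S, 182, 171, 201 and 204 TPM in bypass cells, and 139, 119, 109 and 109 TPM in wild-type G1. The highest wild-type S sample lay 8.63-fold below the lowest wild-type G1 sample and 13.6-fold below the lowest bypass sample, and bypass cells and wild-type G1 did not overlap either. HSP26 fell by 3.15 on the log2 scale against wild-type G1 (standard error 0.11, adjusted p in edgeR = 2.30e-11) and fell by 3.82 against bypass cells. In bypass cells it was higher than in wild-type G1 (log2 fold change 0.67, standard error 0.087, adjusted p in edgeR = 6.02e-05), and unlike most of the 36 genes it was lower in wild-type G1 replicates 3 and 4 than in replicates 1 and 2. The rise was 0.44 within replicates 1 and 2 and 0.91 within replicates 3 and 4.

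BTN2 (YGR142W, chromosome 7, 772454 to 773686, plus strand), a factor that sorts misfolded proteins into deposits, was at 47.5, 49.6, 56.4 and 58.1 TPM in wild-type S, 329.8, 326, 387 and 394 TPM in bypass cells, and 122, 123, 302 and 307 TPM in wild-type G1. Its wild-type G1 samples split most widely of the 36 genes, and the high pair came near bypass cells. It fell in wild-type S against wild-type G1 (log2 fold change -1.84, standard error 0.28, adjusted p in edgeR = 3.62e-05) and fell by 2.60 against bypass cells. Against wild-type G1 this was -1.17 within replicates 1 and 2 and -2.25 within replicates 3 and 4. In bypass cells it was 0.76 above wild-type G1 on the log2 scale (standard error 0.26, adjusted p in edgeR = 0.0304), from 1.41 within replicates 1 and 2 to 0.37 within replicates 3 and 4. CUR1 (YPR158W, chromosome 16, 843262 to 844020, plus strand), its relative, averaged 39.1 ± 5.43 TPM in wild-type S, 96.4 ± 5.45 TPM in bypass cells, and 111 ± 32.2 TPM in wild-type G1 (SD, n = 4 each), fell in wild-type S (log2 fold change -1.34, adjusted p in edgeR = 7.10e-06) and did not pass in bypass cells (-0.20).

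HSP42 (YDR171W, chromosome 4, 806621 to 807748, plus strand), the small heat shock protein that acts also without heat, was at 99.9, 103, 118 and 127 TPM in wild-type S, 547, 509, 534 and 543 TPM in bypass cells, and 318, 309, 524 and 556 TPM in wild-type G1. HSP104 (YLL026W, chromosome 12, 88623 to 91349, plus strand), the disaggregase, was at 168, 179.8, 177 and 185 TPM in wild-type S, 736, 709, 719 and 723 TPM in bypass cells, and 484, 469, 752 and 742 TPM in wild-type G1. For both, wild-type S lay far below and wild-type G1 replicates 1 and 2 lay below bypass cells. Replicates 3 and 4 of wild-type G1 were inside and above the bypass range for HSP42 and just above it for HSP104. HSP42 fell in wild-type S against wild-type G1 by 1.77 on the log2 scale (standard error 0.17, adjusted p in edgeR = 4.56e-07) and fell by 2.09 against bypass cells. HSP104 fell by 1.62 against wild-type G1 and fell by 1.86 against bypass cells. In bypass against wild-type G1 neither passed, with log2 fold changes of 0.32 and 0.24 (adjusted p in edgeR = 0.117 and 0.14), but both passed when wild-type G1 replicate 3 or 4 was left out. The promoter of HSP42 is shown because it holds heat shock elements and stress response elements side by side.

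The sequence runs from 250 bases before to 50 bases after the start codon (R64, chr4:806371-806670, plus strand), 5′ to 3′ on the coding strand, with heat shock elements and stress response elements in capitals.
HSP42: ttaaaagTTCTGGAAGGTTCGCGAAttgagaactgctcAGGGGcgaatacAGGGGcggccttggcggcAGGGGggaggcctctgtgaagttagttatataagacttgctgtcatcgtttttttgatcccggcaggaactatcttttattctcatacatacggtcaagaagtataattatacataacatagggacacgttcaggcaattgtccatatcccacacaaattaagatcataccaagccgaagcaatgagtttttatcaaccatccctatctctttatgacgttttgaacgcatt

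The other genes of this group did not follow a single pattern. HSP30 (YCR021C, chromosome 3, 156109 to 157107, minus strand), a plasma membrane protein that restrains the proton pump, was near the low end of what was counted, with 29 to 100 read pairs per sample, and stood at 4.18, 4.11, 6.43 and 5.78 TPM in wild-type S, 6.78, 8.91, 7.12 and 9.84 TPM in bypass cells, and 3.77, 3.67, 4.55 and 3.16 TPM in wild-type G1. Bypass cells lay above wild-type G1 in all samples (log2 fold change 1.10, standard error 0.18, adjusted p in edgeR = 0.000339), and the rise in wild-type S (log2 fold change 0.60, standard error 0.19, adjusted p in edgeR = 0.0108) came with groups that overlapped in TPM, though not in CPM. That rise was 0.32 within replicates 1 and 2 and 0.81 within replicates 3 and 4. It did not pass within replicates 1 and 2. HSP12 (YFL014W, chromosome 6, 107256 to 107585, plus strand), a small membrane-associated stress protein, averaged 429.8 ± 57.9 TPM in wild-type S, 478 ± 31.2 TPM in bypass cells, and 298 ± 66.1 TPM in wild-type G1 (SD, n = 4 each). It was higher than in wild-type G1 both in wild-type S (log2 fold change 0.69, standard error 0.13, adjusted p in edgeR = 0.000255) and in bypass cells (log2 fold change 0.68, adjusted p in edgeR = 0.000967), where it was 1.06 within replicates 1 and 2 and 0.36 within replicates 3 and 4. HSP31 (YDR533C, chromosome 4, 1501447 to 1502160, minus strand), a chaperone and glyoxalase of the DJ-1 family, averaged 23.1 ± 4.17 TPM in wild-type S, 79.8 ± 5.44 TPM in bypass cells, and 59.2 ± 12.2 TPM in wild-type G1, fell in wild-type S by 1.18 on the log2 scale against wild-type G1 and rose in bypass cells by 0.43 (adjusted p in edgeR = 0.0164), which was 0.76 within replicates 1 and 2 and 0.14 within replicates 3 and 4.

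**Figure D4:**
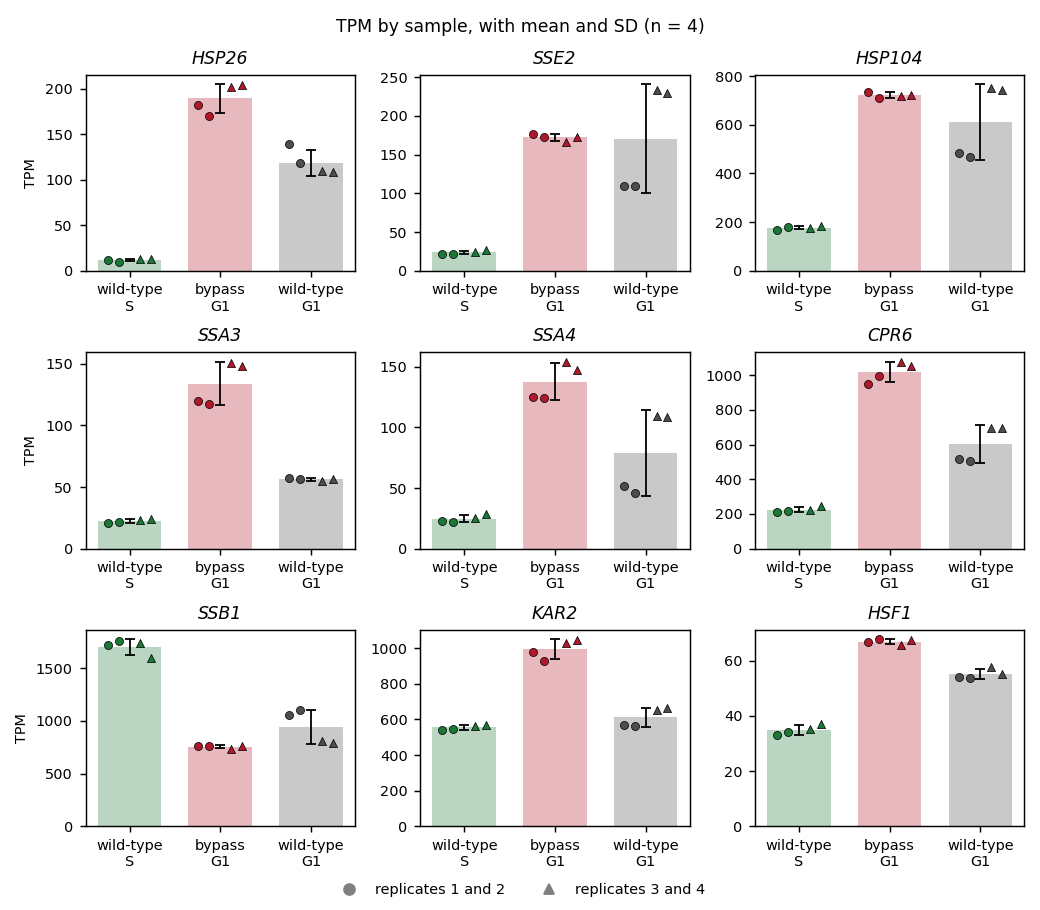
TPM of 9 of the 36 genes in every sample of wild-type S, bypass cells and wild-type G1. Bars are means, error bars SDs over 4 replicates, circles replicates 1 and 2 and triangles replicates 3 and 4. HSP26, SSE2 and HSP104 are lowest in wild-type S, SSB1 is highest there, and KAR2 is highest in bypass cells. The 2 pairs of wild-type G1 lie far apart for SSE2, HSP104 and SSA4 and close together for SSA3 and HSF1.

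The 5 mitochondrial chaperones did not move in 1 direction in wild-type S. Against wild-type G1, SSC1, HSP60 and MDJ1 rose and HSP78 fell with TMM, though HSP60 and MDJ1 overlapped in TPM. SSC1 (YJR045C, chromosome 10, 519638 to 521602, minus strand), the Hsp70 of the matrix, averaged 920.0 ± 74.1 TPM in wild-type S, 861 ± 25.2 TPM in bypass cells, and 656 ± 40.1 TPM in wild-type G1 (SD, n = 4 each), and was higher than in wild-type G1 both in wild-type S (log2 fold change 0.65, standard error 0.063, adjusted p in edgeR = 5.61e-07) and in bypass cells (log2 fold change 0.39, standard error 0.063, adjusted p in edgeR = 0.00029). Its rise in bypass cells was 0.42 within replicates 1 and 2 and 0.37 within replicates 3 and 4. HSP60 (YLR259C, chromosome 12, 663284 to 665002, minus strand), the chaperonin of the matrix, averaged 804 ± 63.3 TPM in wild-type S, 764 ± 15.0 TPM in bypass cells, and 714 ± 55.5 TPM in wild-type G1, and rose by 0.33 on the log2 scale in wild-type S relative to wild-type G1 (adjusted p in edgeR = 0.000308), which was 0.53 within replicates 1 and 2 and 0.14 within replicates 3 and 4. HSP10 (YOR020C, chromosome 15, 370524 to 370844, minus strand), its lid, did not pass in any comparison, with averages of 794 ± 82.0 TPM in wild-type S, 869 ± 41.7 TPM in bypass cells, and 842 ± 78.8 TPM in wild-type G1. MDJ1 (YFL016C, chromosome 6, 104701 to 106236, minus strand), the J-domain partner of Ssc1, averaged 153 ± 5.06 TPM in wild-type S, 168 ± 5.77 TPM in bypass cells, and 149 ± 15.8 TPM in wild-type G1, and passed in wild-type S (0.20 over wild-type G1) and in bypass cells (0.18). In wild-type S this was 0.34 within replicates 1 and 2 and 0.085 within replicates 3 and 4. In bypass cells it was 0.29 within replicates 1 and 2 and 0.079 within replicates 3 and 4, where it no longer passed. HSP78 (YDR258C, chromosome 4, 971808 to 974243, minus strand), the disaggregase of the matrix and a relative of Hsp104, was the 1 gene of the 5 that fell in wild-type S (log2 fold change -0.91, standard error 0.071, adjusted p in edgeR = 5.78e-08), with averages of 94.0 ± 1.31 TPM in wild-type S, 198 ± 2.68 TPM in bypass cells, and 198 ± 27.1 TPM in wild-type G1. With spike-in scaling, HSP60 and SSC1 no longer passed in wild-type S against bypass (log2 fold changes 0.096 and 0.12, with TMM 0.24 and 0.26). Both genes also overlapped in TPM between these groups.

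The Hsp70s of the ER lumen rose in bypass cells by similar amounts in both pairs of replicates. KAR2 (YJL034W, chromosome 10, 381327 to 383375, plus strand), the yeast BiP, was at 544, 545, 564 and 569 TPM in wild-type S, 981, 925, 1026 and 1048 TPM in bypass cells, and 567, 566, 651 and 664 TPM in wild-type G1. LHS1 (YKL073W, chromosome 11, 296430 to 299075, plus strand), an Hsp70-like exchange factor of Kar2, was at 48.8, 49.5, 54.3 and 54.6 TPM in wild-type S, 79.5, 80.5, 83.9 and 80.7 TPM in bypass cells, and 50.7, 50.1, 47.1 and 48.5 TPM in wild-type G1. For both, bypass cells lay above all samples of the other groups. The log2 fold change over wild-type G1 was 0.70 for KAR2 (standard error 0.058, adjusted p in edgeR = 1.99e-06) and 0.72 for LHS1 (standard error 0.046, adjusted p in edgeR = 2.39e-07). KAR2 gave 0.74 within replicates 1 and 2 and 0.67 within replicates 3 and 4. LHS1 gave 0.66 and 0.80 for the same pairs. Wild-type S differed little from wild-type G1, with 0.022 for KAR2 (adjusted p in edgeR = 0.735) and 0.24 for LHS1 (adjusted p in edgeR = 0.000345). For LHS1 this was 0.13 within replicates 1 and 2 and 0.35 within replicates 3 and 4. In TPM, LHS1 overlapped between these groups. Within replicates 1 and 2 it was lower in wild-type S (48.8 and 49.5 TPM) than in wild-type G1 (50.7 and 50.1 TPM).

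Other genes of ER folding and the unfolded protein response were counted beside them, from a list of 15. In bypass cells 11 of the 15 were higher and 2 lower than in wild-type G1, with a median log2 fold change of 0.20, against 26.0% of all genes higher and 28.5% lower. Within replicates 1 and 2 the list had 10 higher and 2 lower (all genes 32.9% and 33.2%), and within replicates 3 and 4 it had 11 and 1 (all genes 31.7% and 32.3%). With spike-in scaling it had 12 higher and 0 lower, where 49.1% of all genes passed and 91.0% of these were higher. Among the genes of this list with the largest changes were SIL1, an exchange factor of Kar2 (0.87 on the log2 scale), ERO1, the oxidase that feeds disulfide bonds to the lumen (0.72), and PDI1, the protein disulfide isomerase (0.55). SIL1 averaged 49.5 ± 4.18 TPM in wild-type S, 97.4 ± 7.68 TPM in bypass cells, and 53.3 ± 2.33 TPM in wild-type G1 (SD, n = 4 each), and PDI1 541 ± 13.1, 1184 ± 9.64 and 806 ± 11.1 TPM in the same order. In wild-type S against wild-type G1 the list was mixed, with 6 higher and 7 lower, against 40.4% of all genes higher and 43.3% lower.

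An unfolded protein response element, here CAGCGTG or CACGCTG on the coding strand, was found between 250 bases before and 50 bases after the start codon of KAR2 and of LHS1 and in none of the other 34 genes. Of all 6001 promoters of nuclear protein-coding genes, 1.17% held one. Of the 64 tested genes with a match, 18 were higher and 25 lower in bypass cells than in wild-type G1, with a median log2 fold change of -0.091. KAR2 also holds 2 overlapping heat shock elements. The promoter of KAR2 (R64, chr10:381077-381376, plus strand) is given over the same 300 bases as that of HSP42 and the window of LHS1 around its element (R64, chr11:296323-296351, plus strand), both 5′ to 3′ on the coding strand with the matches in capitals.
KAR2: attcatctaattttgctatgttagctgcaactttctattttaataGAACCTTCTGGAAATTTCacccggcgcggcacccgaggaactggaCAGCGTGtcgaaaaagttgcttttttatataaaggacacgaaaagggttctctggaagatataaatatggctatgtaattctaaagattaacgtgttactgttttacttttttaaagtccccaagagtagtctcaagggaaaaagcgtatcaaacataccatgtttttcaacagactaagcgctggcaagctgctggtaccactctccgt
LHS1: atatcgaaCACGCTGttataaaagtgatc

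The heat shock element was searched as 3 units of GAA and TTC in turn with any 2 bases between, in either order. It was found in 9 of the 36 promoters (25.0%) and in 0.783% of all promoters. Besides HSP42 and KAR2 these were SSA2, SSE1, FES1, STI1, HSP78, HSP10 and HSP60, whose matches are shown with their flanks so that they can be read beside the values above, 5′ to 3′ on the coding strand. The windows lie at chr12:97698-97726, minus strand for SSA2, chr16:352441-352469, minus strand for SSE1, chr2:444844-444872, minus strand for FES1, chr15:380803-380857, plus strand for STI1, chr4:974465-974493, minus strand for HSP78, chr15:370984-371012, minus strand for HSP10 and chr12:665192-665220, minus strand for HSP60, all in R64. Capitals mark the matches, 2 of them overlapping in HSP78 and 2 apart in STI1.
SSA2: aagtttttTTCTAGAACATTCcatcgaag
SSE1: gaagatgaTTCTAGAAGATTCcttttcca
FES1: ttggactgGAATCTTCTGGAAgttttttg
STI1: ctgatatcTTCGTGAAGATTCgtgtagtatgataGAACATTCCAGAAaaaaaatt
HSP78: attTTCCAGAATGTTCTAGAAgtgttctt
HSP10: caatgataGAAATTTCTAGAAtcttgaag
HSP60: acctcgtgGAATTTTCCAGAAaaccaaat

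The 9 genes were compared with those without a match. In wild-type S against wild-type G1, 4 of the 9 fell, 1 rose and the median log2 fold change was 0.022, with -0.69 over the 27 genes with no match. Of all 45 tested genes with a match 16 rose and 17 fell, with a median of 0.039, against 40.4% of all genes higher and 43.3% lower. Against bypass cells, 7 of the 9 fell and 1 rose in wild-type S with a median of -0.68, near the -0.77 of genes with no match (41.5% of all genes higher and 43.6% lower). In bypass cells against wild-type G1 4 of the 9 rose and 0 fell, against 26.0% of all genes higher and 28.5% lower. Of the 27 genes with no match 15 rose and 4 fell, and the medians were near each other (0.31 with and 0.26 without a match). Of all 45 tested genes with a match 11 rose and 11 fell, with a median of 0.045. HSP10 held a match and did not pass in any comparison, and SSA3, SSA4, CPR6, HSP26 and BTN2 held none within this window. The stress response element, AGGGG on either strand, was found in 11 of the 36 promoters (30.6%) and in 21.6% of all. Of those 11 genes, 10 fell and 1, HSP12, rose in wild-type S against wild-type G1, with a median log2 fold change of -1.18, and of the other 25 genes 11 fell and 9 rose, with a median of 0.043. Of all 1211 tested genes with a match, 648 fell and 392 rose, with a median of -0.22, where 43.3% of all genes fell and 40.4% rose. A match is a description of the letters and was not tested as a site.

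The balance between the 2 genes of a pair also differed between the groups. HSP82 over HSC82 in TPM was 0.196, 0.201, 0.202 and 0.200 in wild-type S, 0.630, 0.635, 0.677 and 0.663 in bypass cells and 0.401, 0.382, 0.475 and 0.472 in wild-type G1. The 3 groups did not overlap, with the inducible gene least represented in wild-type S. SSA1 over SSA2 was 0.818, 0.835, 0.770 and 0.793 in wild-type S, 1.79, 1.80, 1.78 and 1.85 in bypass cells and 1.47, 1.47, 1.63 and 1.63 in wild-type G1, so that SSA1 exceeded SSA2 in both G1 groups and lay below it in wild-type S. SSE1 over SSE2 was 31.2, 30.7, 30.1 and 27.4 in wild-type S, 5.28, 5.35, 5.63 and 5.47 in bypass cells and 6.03, 6.16, 3.49 and 3.51 in wild-type G1, which set wild-type S apart and left wild-type G1 in a high and a low pair around bypass cells.

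SSA4 over SSA3 was 1.09, 1.01, 1.116 and 1.17 in wild-type S, 1.04, 1.06, 1.02 and 0.996 in bypass cells and 0.899, 0.806, 2.0 and 1.92 in wild-type G1. In wild-type G1 replicates 1 and 2 lay below every sample of the other groups and replicates 3 and 4 above every one. SSB1 over SSB2 averaged 1.32 ± 0.0170 in wild-type S, 1.25 ± 0.0193 in bypass cells and 1.11 ± 0.0753 in wild-type G1 (SD, n = 4 each). Only uniquely mapped read pairs were counted, which bears on near-identical genes. The coding sequences of SSB1 and SSB2 were 97.4% identical, those of SSA1 and SSA2 96.8%, HSP82 and HSC82 92.4%, SSA4 and SSA3 77.2% and SSE1 and SSE2 71.7%. Of the 42-base windows, 42 bases being the read length, 40.1% of SSA1, 39.8% of SSA2, 51.2% of SSB1 and SSB2, 90.9% of HSP82 and 90.8% of HSC82 occur once in the genome, so that TPM of SSA1, SSA2, SSB1 and SSB2 understate their level. The share was nearly the same for both genes of each pair.

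**Figure D5:**
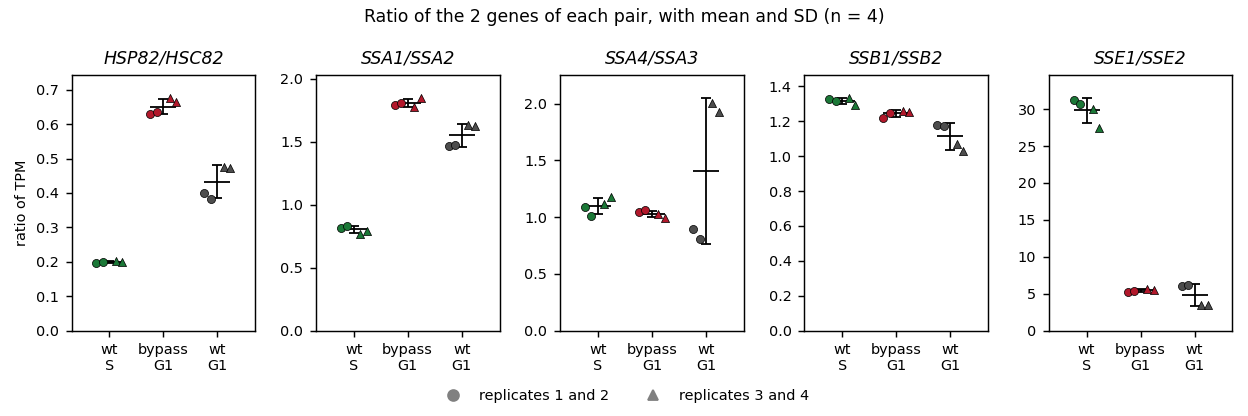
Ratio of TPM of the 2 genes of each of 5 pairs in every sample, with mean and SD over 4 replicates (circles replicates 1 and 2, triangles replicates 3 and 4). HSP82/HSC82 and SSA1/SSA2 are lowest in wild-type S, SSE1/SSE2 averages 29.8 there, 5.43 in bypass cells and 4.80 in wild-type G1, and SSA4/SSA3 splits wild-type G1 by pairs.

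Genes that share a regulator with the 36 were counted from 2 more lists. Of 18 genes known to depend on Hsf1 in unstressed cells, 16 of which are among the 36, 15 fell and 1, MDJ1, rose in wild-type S against wild-type G1, with a median log2 fold change of -0.91. Of all genes tested 83.8% passed there, 43.3% lower, so that the share called was near that of all genes. The 18 summed to 6678 ± 149 TPM in wild-type S, 13764 ± 237 TPM in bypass cells, and 11501 ± 2246 TPM in wild-type G1 (SD, n = 4 each). In bypass cells 8 of the 18 rose and 1, HCH1, fell against wild-type G1, where 54.5% of all genes passed, 26.0% higher. With spike-in scaling 14 rose and 1 fell, with a median of 0.43 in place of 0.21. Of all genes 49.1% passed under that scaling, 91.0% of these higher. With TMM the count was 17 higher and 1 lower within replicates 1 and 2 (median 0.52), where 32.9% of all genes were higher and 33.2% lower. Within replicates 3 and 4 it was 6 higher and 7 lower (median 0.016), near the 31.7% and 32.3% of all genes. All 18 were higher in wild-type G1 replicates 3 and 4 than in replicates 1 and 2, by a median of 0.50 on the log2 scale.

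Of 12 general stress genes under Msn2 and Msn4, none of them among the 36, 9 fell and 1 rose in wild-type S against wild-type G1, with a median log2 fold change of -0.64, a share called like the 83.8% of all genes. The largest falls were those of TFS1, an inhibitor of carboxypeptidase Y (-2.20), DCS2, a stress-induced regulatory protein (-1.81), and PNC1, the nicotinamidase (-1.65). PNC1 averaged 204 ± 10.0 TPM in wild-type S, 695 ± 17.5 TPM in bypass cells, and 716 ± 101 TPM in wild-type G1 (SD, n = 4 each). In bypass cells 3 of the 12 rose and 1 fell against wild-type G1 (median 0.072), where 26.0% of all genes rose and 28.5% fell. With spike-in scaling 7 rose and 0 fell (median 0.29), where 49.1% of all genes passed and 91.0% of these were higher. With TMM 8 rose and 0 fell within replicates 1 and 2 (all genes 32.9% and 33.2%). Within replicates 3 and 4, 3 rose and 6 fell (all genes 31.7% and 32.3%).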

How the data were processed

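Polyadenylated RNA of 12 samples was sequenced. The authors deposited raw counts of read pairs per gene, without normalization or filter. Per the submitters' processing notes STAR 2.7.10a, SAMtools 1.12 and HTSeq 2.0.1 were used with sacCer3. The study's methods give counting by strand and of uniquely mapped pairs only. Lines of unassigned reads (3.36% to 5.52% without a feature, 5.70% to 6.35% not unique) were left out. Groups came from the sample titles. Same-numbered samples deviated together when wild-type S was set against wild-type G1 (correlations of 0.12 to 0.21 in all 4 pairs) but not in all pairs of the other comparisons, and the labels name no pairing.

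The 36 genes, the lists and the alternatives were chosen with earlier results of these data known. All 12 samples were fitted together with edgeR 4.0.16 in R 4.3.3 (filterByExpr, minimum count 10, TMM, glmQLFit and glmQLFTest), with Benjamini-Hochberg adjustment over 5662 genes and calls below 0.1. Standard errors are the log2 fold change over the square root of F. DESeq2 1.42.0, other scalings, filters and null hypotheses, the replicate block and left-out samples were alternatives. TPM used gene lengths of 6096 features matched to RefSeq R64 (99.8% of counts), and promoters were cut from the same RefSeq R64 genome. Per-sample values are given for the 6 largest called, non-overlapping changes in each comparison, the paralog pairs and HSF1, and for each other list at most 3 genes. KAR2 was added after its values were seen. On counts simulated for 5662 genes in the comparison of bypass cells with wild-type G1, 55 of 61 genes changed by 0.5 on the log2 scale, 66 of 68 changed by 1 and 71 of 71 changed by 2 were recovered, with 11 unchanged genes called. The simulated samples were drawn independently, without pairs of similar replicates, and few genes were changed. These counts therefore do not describe how the test behaves on the real samples. Python 3.11.15 and Biopython 1.88 were used elsewhere.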

Additional observations from a re-analysis of the deposited data

Results flagged for a closer look

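In 123 groups of 4 samples (36 genes and 5 ratios of paralogs in 3 groups) the sample farthest from the others was set against the range of its group, and 4 stood apart, where chance gives about 6.15. SSA1 was at 681 TPM in wild-type S replicate 2, with 647 to 650.2 TPM in the other 3 samples. SSA3 was at 54.8 TPM in wild-type G1 replicate 3, with 56.6 to 57.0 TPM in the others. HSP26 was at 10.2 TPM in wild-type S replicate 2, with 12.3 to 12.6 TPM in the others. HSP78 was at 194 TPM in bypass replicate 2, with 199 to 199.9 TPM in the others. The cause was not tested.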

How the results depend on the processing

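Leaving out 1 sample at a time lost no call among the 36 genes. The count of genes called ranged from 23 to 26 in bypass cells against wild-type G1, from 31 to 32 in wild-type S against wild-type G1, and stayed at 32 in wild-type S against bypass. DESeq2 called 25, 32 and 32 in the same order. With the replicate number as a block these were 26, 31 and 32. The labels do not say that the numbers pair samples: same-numbered samples had correlations of -0.0038 to 0.28, over 0.1 in 7 of 12 pairs, and correlated best with their own number in 5 of 12. The block called the same 31 genes in wild-type S against wild-type G1. In the block HSP12 was at -0.0067 in wild-type S against bypass cells.

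The counts in bypass against wild-type G1 moved most. With spike-in totals 1 gene was lower and the median was 0.48. Against a log2 fold change of 0.5, 5 genes were called, 5 higher and 0 lower. With counts summed within the pairs of similar replicates, 15 were called and 12 were higher. Replicates 1 and 2 alone gave 35 called, 31 higher and a median of 0.46, and replicates 3 and 4 alone gave 11 lower. In wild-type S against wild-type G1, 6 genes were higher when tested against 0.5. The median in wild-type S against bypass cells was -0.76 with library totals and -0.84 with spike-in totals, under which the median of all genes was -0.16. The sum of the 36 genes was 24745 in wild-type S, 32791 in bypass cells and 28145 in wild-type G1 as CPM, 18233, 25752 and 22096 as TPM over the unique length, and without HSC82 13432 TPM in wild-type S and 19341 TPM in bypass cells. These follow from the change of unit or genes, and the causes of the other moves were not tested.

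Signs turned only for log2 fold changes that had not passed, except that of HSC82 in wild-type S against wild-type G1, 0.014 within replicates 1 and 2. In bypass cells against wild-type G1 the turned values were SIS1 0.14, AHA1 0.18, CUR1 0.016 with spike-in totals, SSE2 -0.0036, HSP78 -0.018 with library totals, HSP78 -0.0050 without a filter, SIS1 0.24, AHA1 0.14, CUR1 0.18 within replicates 1 and 2, and SSE2 -0.44, FES1 -0.18, HSC82 -0.11, HSP104 -0.037, HSP78 -0.14 within replicates 3 and 4. In wild-type S against wild-type G1 they were SSA2 -0.030, YDJ1 -0.031, KAR2 -0.052 with library totals and SSA2 -0.14, YDJ1 -0.055, HSP10 -0.11, KAR2 -0.051 within replicates 3 and 4. In wild-type S against bypass cells they were HSP12 -0.042, HSP10 -0.022, MDJ1 -0.025 with library totals, HSP12 -0.13, HSP10 -0.11, MDJ1 -0.11 with spike-in totals, HSP12 -0.23 within replicates 1 and 2 and HSP10 -0.15 within replicates 3 and 4. With 1 sample left out, values that turned ranged over AHA1 -0.10 to 0.017, HSC82 -0.033 to 0.087, HSP10 -0.015 to 0.079, HSP78 -0.051 to 0.067, SIS1 -0.19 to 0.015, SSE2 -0.14 to 0.20 in bypass cells against wild-type G1, KAR2 -0.0082 to 0.061, SSA2 -0.026 to 0.12, YDJ1 -0.0074 to 0.088 in wild-type S against wild-type G1, and HSP10 -0.019 to 0.092, HSP12 -0.044 to 0.070 in wild-type S against bypass cells.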

Other observations

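Folding factors outside the 36 genes were counted from 6 lists, by the same test, which called 40.4% of all genes higher and 43.3% lower in wild-type S against wild-type G1 and 26.0% of all genes higher and 28.5% lower in bypass cells against wild-type G1. The nascent polypeptide-associated complex, which meets chains at the ribosome beside Ssb and the ribosome-associated complex, had 3 higher and 0 lower of 3 genes in wild-type S against wild-type G1, with EGD2 at 1597 ± 28.5 TPM in wild-type S, 1142 ± 19.4 TPM in bypass cells, and 1349 ± 43.7 TPM in wild-type G1 (SD, n = 4 each). In bypass cells against wild-type G1 it had 0 higher and 1 lower, and 1 higher and 0 lower with spike-in scaling. The CCT chaperonin, which folds actin and tubulin, had 5 higher and 0 lower of 8 subunits in wild-type S and 5 higher and 0 lower in bypass cells (7 higher and 0 lower with spike-in scaling), each against wild-type G1 and with log2 fold changes of at most 0.33 and 0.33. Of all genes 83.8% and 54.5% passed in these comparisons. Prefoldin, which hands clients to CCT, had 2 higher and 4 lower of 6 in wild-type S and 1 higher and 4 lower in bypass cells. With spike-in scaling prefoldin had 2 higher and 0 lower in wild-type S and 2 higher and 1 lower in bypass cells. Under that scaling 49.1% of all genes passed in bypass cells against wild-type G1, 91.0% of these higher. In wild-type S against wild-type G1 76.5% passed, 53.6% of these higher.

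SNL1, an exchange factor anchored in the ER membrane, was at 88.6 ± 5.38 TPM in wild-type S, 13.4 ± 1.29 TPM in bypass cells, and 18.0 ± 1.69 TPM in wild-type G1 (SD, n = 4 each), a log2 fold change of 2.46 in wild-type S against wild-type G1 (adjusted p in edgeR = 1.21e-11). Its list of 11 other cytosolic J-domain proteins and exchange factors had 5 higher and 3 lower in that comparison and 3 higher and 5 lower in bypass cells, which became 5 higher and 1 lower with spike-in scaling. Of 8 other mitochondrial folding factors, PAM18, PAM16 and MGE1, which serve Ssc1 at the import motor, rose in wild-type S by 1.00, 0.88 and 0.63 on the log2 scale against wild-type G1, and the list had 3 higher and 2 lower. In bypass cells it had 1 higher and 3 lower, and 1 higher and 0 lower with spike-in scaling. Of 7 other Hsp90 co-chaperones, 2 higher and 3 lower were counted in wild-type S, with the phosphatase gene PPT1 at 0.80. In bypass cells the 7 had 1 higher and 5 lower, and 1 higher and 1 lower with spike-in scaling.

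Of 6 stress transcription factors, MSN2 rose and MSN4 fell in wild-type S against wild-type G1, by log2 fold changes of 1.04 and -0.71. MSN2 was at 61.8 ± 3.44 TPM in wild-type S, 39.0 ± 0.463 TPM in bypass cells, and 33.7 ± 5.44 TPM in wild-type G1, and MSN4 at 34.9 ± 3.45 TPM in wild-type S, 80.3 ± 6.33 TPM in bypass cells, and 63.8 ± 1.44 TPM in wild-type G1 (SD, n = 4 each). In bypass cells 5 of the 6 were higher than in wild-type G1, against 26.0% of all genes, among them YAP1, the regulator of the oxidative stress response, at 0.35 on the log2 scale.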
